A study of Mus musculus with 26 samples.

Results

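The interferon response genes described here are 45 mouse genes that cells switch on when they sense interferon or viral nucleic acid. They were chosen by name from knowledge of the interferon response, not by a threshold on these values, although earlier results of these data were known when they were chosen. A member's level was taken from the probe sets whose annotation named that gene and no other. All 45 were on the array, with 472 probe sets between them (2 for Ifit3 to 23 for Ddx58), out of 23152 genes tested. The cells were mouse neural stem cells, taken at E14.5 from wild-type embryos of the C57BL6 strain, and Affymetrix arrays gave their RNA levels. The cells had received 1 of 5 lentiviral constructs, each in 3 numbered pools: MYBtr, MYBQKI5, MYBQKI6, QKItr or eGFP. MYB is a transcription factor and QKI an RNA-binding protein, and fusions of their genes occur in a childhood glioma. The tags 5 and 6 are those of QKI isoforms, and eGFP is a fluorescent protein that served as the control transgene. The eGFP group had 2 arrays per pool, and their mean was used as the value of the pool. A second set of 8 arrays held cells that carried MYBQKI6 and were labelled as having Qk (5 arrays) or LacZ, a bacterial gene (3 arrays), suppressed. Every sample, the controls included, had been given a lentivirus. The labels do not say whether pools came from separate litters or cultures, and the p-values therefore reflect only how these samples vary, which may be technical variation.

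An interferon that binds its receptor activates receptor-bound JAK kinases, which lead STAT2 and its partners to join IRF9 and move to the nucleus. The complex binds a short element, the interferon-stimulated response element (ISRE), in front of many genes. Some of the products sense viral RNA, some block viral RNA or protein synthesis, some tag proteins with ISG15, and some load peptides for display to T cells. IRF7, itself such a product, raises further interferon production, while USP18 removes ISG15 and dampens the receptor. Stem cells are known to keep some of these genes on without infection.

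Where these genes have their starts, the element can be read directly. RefSeq promoter windows on GRCm38.p6, from 250 bases before to 50 bases after the annotated start, were held for 36 of the 45 members. The ISRE core was searched as GAAA, then 2 bases of any kind, then GAAA, on both strands, with overlapping matches kept. It stood in 19 of the 36 members (52.8%) and in 1079 of 27025 genes with a window (3.99%). The element bound by STAT dimers, TTCNNNGAA, stood in 8 of the 36 members (22.2%) and in 9.55% of all genes with a window. A match describes these letters only and is not a shown binding site. With the core in capitals, 5 windows are printed, of members chosen after their values were seen. They span transcription control (Stat2), a GTPase (Igtp), a chemokine (Cxcl10), the ubiquitin-like tag (Isg15) and an RNA-binding effector (Ifit1). Each is written 5′ to 3′ on the gene's own strand. A core on the opposite strand reads as TTTC, 2 bases, TTTC.
Stat2: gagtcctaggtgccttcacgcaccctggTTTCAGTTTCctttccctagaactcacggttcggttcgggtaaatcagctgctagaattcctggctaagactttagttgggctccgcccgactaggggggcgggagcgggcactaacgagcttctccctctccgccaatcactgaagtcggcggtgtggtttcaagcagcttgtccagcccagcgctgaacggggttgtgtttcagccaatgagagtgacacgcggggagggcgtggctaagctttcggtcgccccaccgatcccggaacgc
Igtp: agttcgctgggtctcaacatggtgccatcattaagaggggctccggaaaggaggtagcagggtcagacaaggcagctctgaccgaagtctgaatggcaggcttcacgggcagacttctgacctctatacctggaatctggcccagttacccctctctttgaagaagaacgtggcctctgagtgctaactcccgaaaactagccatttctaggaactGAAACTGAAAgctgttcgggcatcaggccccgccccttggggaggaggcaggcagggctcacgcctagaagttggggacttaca
Cxcl10: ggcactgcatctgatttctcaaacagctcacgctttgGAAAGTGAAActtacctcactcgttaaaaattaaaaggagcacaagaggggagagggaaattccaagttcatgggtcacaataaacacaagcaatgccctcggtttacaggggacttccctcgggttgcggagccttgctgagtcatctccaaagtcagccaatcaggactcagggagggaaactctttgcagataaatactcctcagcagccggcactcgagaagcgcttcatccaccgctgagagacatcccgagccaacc
Isg15: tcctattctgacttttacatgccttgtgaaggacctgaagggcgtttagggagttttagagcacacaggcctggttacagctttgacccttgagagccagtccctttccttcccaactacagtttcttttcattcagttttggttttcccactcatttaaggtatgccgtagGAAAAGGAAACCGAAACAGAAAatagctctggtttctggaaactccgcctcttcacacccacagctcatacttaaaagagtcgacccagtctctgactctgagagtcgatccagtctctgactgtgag
Ifit1: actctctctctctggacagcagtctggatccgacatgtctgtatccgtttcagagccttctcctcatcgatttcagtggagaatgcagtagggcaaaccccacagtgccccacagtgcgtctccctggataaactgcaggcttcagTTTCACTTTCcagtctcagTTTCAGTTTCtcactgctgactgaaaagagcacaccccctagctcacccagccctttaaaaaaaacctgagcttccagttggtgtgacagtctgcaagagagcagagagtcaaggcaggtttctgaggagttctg
The Stat2 window is chr10:128270248-128270547 on the plus strand, with 1 core that starts 222 bases before the gene. The Igtp window is chr11:58199306-58199605, plus strand, and its core lies 34 bases before the start. Cxcl10, on the minus strand at chr5:92348840-92349139, has a core 213 bases before the start. The Isg15 window, chr4:156200769-156201068 on the minus strand, holds 3 cores, of which 2 overlap the one before, the first 78 bases before the start. Ifit1 lies on the plus strand at chr19:34640639-34640938, with 2 cores, the first 104 bases before the start. The Irf7 window held none. Members also sit side by side: among protein-coding genes of the RefSeq table, Rsad2 neighbours Cmpk2, Oas2 neighbours Oas3, Oasl2 neighbours Oasl1, and Psmb9, Tap1 and Psmb8 stand in a row, as do Parp14, Dtx3l and Parp9.

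The labels were checked first on Myb. Its log2 level averaged 7.23 ± 0.12 in MYBtr, 6.99 ± 0.31 in MYBQKI5 and 7.46 ± 0.40 in MYBQKI6, against 4.86 ± 0.42 in QKItr and 4.62 ± 0.49 in eGFP (SD, n = 3 pools each). The median gene level per array was 4.96 to 5.03 for the pools and 4.78 to 4.87 for the suppression samples, and no comparison crossed the 2 sets. Markers of neural stem cells fitted the label: 11 of 12 were above the array median in each pool of each construct, with a mean level of 8.17 to 8.58. Of 15 microglia and immune markers, 1 or 2 were above the median in each construct, and their mean level was 4.26 to 4.35 in MYBtr, 4.33 to 4.60 in MYBQKI5, 4.39 to 4.46 in MYBQKI6, 4.42 to 4.46 in QKItr and 4.44 to 4.55 in eGFP. One of them, Cd68, was lower with each MYB construct than with eGFP (called with pool as a block). Endothelial markers had mean levels of 4.32 to 4.61 and fibroblast and pericyte markers of 4.45 to 4.75 over the 15 columns. In bulk RNA, fewer cells that respond and less response per cell cannot be told apart.

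With each of the 3 constructs that carry MYB, most interferon response genes lay above eGFP. With QKItr most lay slightly below on average over the pools, though not in pool 1. The members' median difference from eGFP was 0.87 log2 units (1.83-fold) in MYBtr, 1.01 (2.01-fold) in MYBQKI5 and 1.09 (2.13-fold) in MYBQKI6, beside medians of -0.014, -0.007 and -0.005 over all genes. Of the 45 members, 42 were higher on average with MYBtr, 43 with MYBQKI5 and 45 with MYBQKI6. These shifts met a wide spread between pools. In limma on group means alone, no member was called at an adjusted p under 0.05 in any of the 3 comparisons. At the adjusted threshold the same fit called 1.37%, 0.199% and 0.765% of all genes for MYBtr, MYBQKI5 and MYBQKI6. An unadjusted p under 0.05 was found for 14 members of MYBtr, 13 of MYBQKI5 and 19 of MYBQKI6. The share of all genes at that unadjusted threshold is not given here. Samples of the same pool deviated together, and with pool as a block the fit called 17 members higher with MYBtr, 13 with MYBQKI5 and 23 with MYBQKI6, and none lower. That compares with 3.33%, 1.27% and 2.4% of all genes called higher for MYBtr, MYBQKI5 and MYBQKI6 with the block. By p on group means, Igtp, Stat2 and Cmpk2 led each comparison, followed by Dhx58 (adjusted p = 0.22 with MYBtr and 0.25 with MYBQKI6) or Mx1 (0.3 with MYBQKI5). Below, called means an adjusted p under 0.05 in limma with pool as a block unless stated.

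**Figure D1:**
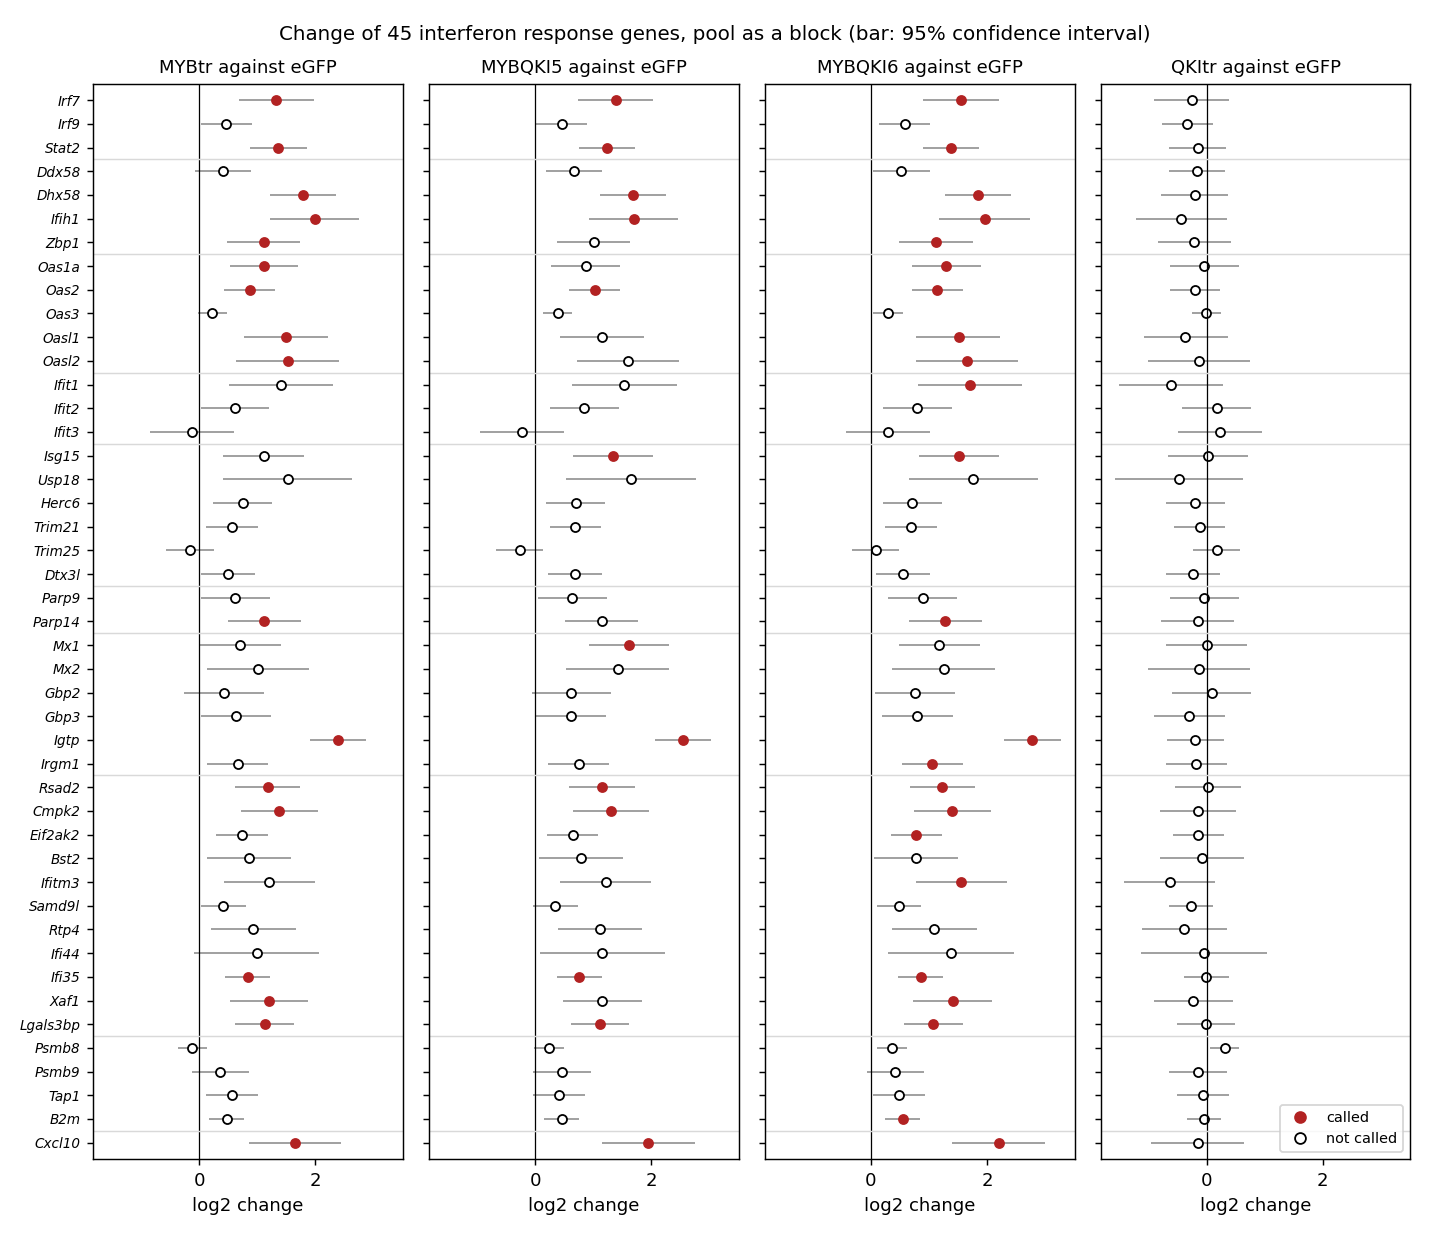
Log2 change of each of the 45 members against eGFP (x axis) for 4 constructs (panels), from the limma fit with pool as a block, n = 3 pools per group. Points are estimates, bars are 95% confidence intervals, filled points were called, and grey lines separate roles. In the MYBtr, MYBQKI5 and MYBQKI6 panels most points lie right of 0, with 17, 13 and 23 filled, while no QKItr point is filled.

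The called sets of the 3 MYB comparisons rested on 3 pools each, and leaving out a pool moved them. With the block and without pool 1, 2 or 3, the counts were 2, 1 and 20 for MYBtr, 4, 2 and 4 for MYBQKI5, and 5, 1 and 18 for MYBQKI6, in fits with fewer samples. A gene's probe set of highest mean in place of the mean of its probe sets gave 5, 1 and 6 called with the block. Shares of all genes called are not given for these refits or for those named below. Fewer calls among the members can therefore not be told from fewer calls over all genes. Counted within pools instead, 42 members were higher with MYBtr than with eGFP in 3 of 3 pools, against 18.7% of all genes. The same held for 40 members with MYBQKI5, against 15.6% of all genes, and for 43 with MYBQKI6, against 17.9%. Ifit3 and Trim25 were outside all 3 counts, joined by Psmb8 for MYBtr and by Samd9l, Psmb9 and Tap1 for MYBQKI5. Fewer members had all 3 pools of a construct above all 3 eGFP pools: 3 with MYBtr (7.03% of all genes), 16 with MYBQKI5 (4.94%) and 6 with MYBQKI6 (6.61%). Stat2, Igtp and Cmpk2 were in each of these counts.

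Among the genes of signalling and transcription, Stat2 and Irf7 were called with each MYB construct and Irf9 with none. Stat2, the signalling part of the nuclear complex, had log2 levels of 9.46, 9.55 and 8.24 in MYBtr, 8.72, 9.07 and 9.11 in MYBQKI5, 9.12, 9.58 and 8.63 in MYBQKI6, 7.90, 7.62 and 7.17 in QKItr and 7.77, 8.10 and 7.31 in eGFP (pools 1, 2 and 3). Each MYB sample lay above each eGFP sample. The change was 1.36 ± 0.23 with MYBtr, 1.24 ± 0.23 with MYBQKI5 and 1.38 ± 0.23 with MYBQKI6 (log2, SE; limma adjusted p = 0.0032, 0.011 and 0.0038), and its 20 probe sets were all higher with the MYB constructs in 3 of 3 pools. Irf7, the factor that amplifies interferon production, had 6.20, 7.10 and 4.90 in MYBtr, 5.63, 6.66 and 6.08 in MYBQKI5, 6.19, 7.56 and 5.10 in MYBQKI6, 4.36, 4.95 and 4.11 in QKItr and 4.34, 5.69 and 4.18 in eGFP. Within each pool the MYB samples were above eGFP, but pool 3 of MYBtr and MYBQKI6 and pool 1 of MYBQKI5 lay below pool 2 of eGFP. Irf7 rose by 1.33 ± 0.30, 1.39 ± 0.30 and 1.55 ± 0.30 in the 3 comparisons (limma adjusted p = 0.017, 0.026 and 0.01). Irf9, the DNA-binding part of the complex, had 7.59, 8.18 and 7.06 in MYBtr, 7.32, 7.84 and 7.66 in MYBQKI5, 7.61, 8.32 and 7.27 in MYBQKI6, 7.24, 7.07 and 6.13 in QKItr and 7.17, 7.59 and 6.70 in eGFP. Its differences were 0.46, 0.46 and 0.58, with limma adjusted p of 0.26, 0.35 and 0.16.

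Of the 4 sensors of viral nucleic acid, Ifih1 (the long double-stranded RNA sensor MDA5) and Dhx58 (LGP2, its partner) were called with each MYB construct, Zbp1 (a sensor of Z-form nucleic acid) with MYBtr and MYBQKI6, and Ddx58 (RIG-I) with none. Ifih1 had 10.74, 9.95 and 8.23 in MYBtr, 9.42, 9.36 and 9.28 in MYBQKI5, 10.16, 10.17 and 8.52 in MYBQKI6, 8.39, 7.53 and 5.72 in QKItr and 8.31, 8.44 and 6.21 in eGFP. Its SD over pools was 1.28 in MYBtr, 0.07 in MYBQKI5, 0.95 in MYBQKI6 and 1.25 in eGFP. The change was 1.99 ± 0.36 with MYBtr, 1.70 ± 0.36 with MYBQKI5 and 1.96 ± 0.36 with MYBQKI6 (limma adjusted p = 0.0053, 0.024 and 0.0073), and the samples of MYBQKI5 and MYBQKI6 did not overlap those of eGFP. Dhx58 rose by 1.78 ± 0.27 with MYBtr, 1.68 ± 0.27 with MYBQKI5 and 1.84 ± 0.27 with MYBQKI6 (log2, SE; limma adjusted p = 0.0017, 0.0056 and 0.0018). Zbp1 rose by 1.11 with MYBtr and 1.12 with MYBQKI6, although its brightest probe set differed by only 0.27 over the 3 MYB constructs. Ddx58 differed by 0.40, 0.67 and 0.52.

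Of the 5 genes of the 2-5A synthetase family, which make the signal that activates RNase L or are relatives of such enzymes, 4 were called with MYBtr, 1 with MYBQKI5 and 4 with MYBQKI6. Oas2 rose by 0.87 ± 0.20, 1.03 ± 0.20 and 1.14 ± 0.20 (limma adjusted p = 0.02, 0.016 and 0.0058), although its brightest probe set differed by -0.07 over the 3 MYB constructs. Oas3, with differences of 0.22, 0.39 and 0.30, was called in none. Oasl2 had 8.80, 8.77 and 6.85 in MYBtr, 8.12, 8.55 and 7.99 in MYBQKI5, 8.53, 8.82 and 7.47 in MYBQKI6, 7.91, 6.95 and 4.57 in QKItr and 7.11, 7.68 and 5.05 in eGFP. The MYB samples of pool 3 lay well above QKItr and eGFP of that pool, while pool 3 of MYBtr and MYBQKI6 lay below pool 2 of eGFP. Its rise was 1.52 ± 0.41 with MYBtr and 1.65 ± 0.41 with MYBQKI6 (limma adjusted p = 0.043 and 0.035), and its difference was 1.60 ± 0.41 with MYBQKI5 (adjusted p = 0.056).

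The IFIT proteins bind viral RNA ends. Ifit1 had 10.53, 9.51 and 7.11 in MYBtr, 9.79, 9.08 and 8.66 in MYBQKI5, 10.29, 9.88 and 7.88 in MYBQKI6, 8.87, 7.32 and 4.85 in QKItr and 8.82, 8.64 and 5.45 in eGFP. Pool 3 was the lowest in each of the 5 groups. Ifit1 was called with MYBQKI6 (1.71 ± 0.42, limma adjusted p = 0.032), and differed by 1.41 ± 0.42 with MYBtr and 1.54 ± 0.42 with MYBQKI5 (adjusted p = 0.067 and 0.074). Ifit3, read by 2 probe sets only, had 4.75, 3.95 and 3.86 in MYBtr, 4.03, 3.88 and 4.36 in MYBQKI5, 3.85, 4.85 and 5.13 in MYBQKI6, 4.84, 4.37 and 4.43 in QKItr and 4.84, 4.39 and 3.71 in eGFP. Its level was below the array median in each eGFP pool, and the samples of all 5 constructs overlapped. Ifit3 has a near-identical neighbouring copy in mice, so its value is uncertain.

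Isg15 encodes the ubiquitin-like tag of the response, and Usp18 the protease that removes it. Isg15 had 7.83, 8.17 and 6.23 in MYBtr, 8.23, 7.56 and 7.16 in MYBQKI5, 8.22, 8.47 and 6.78 in MYBQKI6, 7.59, 6.60 and 4.78 in QKItr and 7.00, 7.24 and 4.67 in eGFP. It was called with MYBQKI5 (1.35 ± 0.32, limma adjusted p = 0.042) and MYBQKI6 (1.52 ± 0.32, adjusted p = 0.016), and differed by 1.11 ± 0.32 with MYBtr (adjusted p = 0.062). Usp18 had 9.60, 9.80 and 7.57 in MYBtr, 9.06, 9.31 and 9.00 in MYBQKI5, 9.24, 10.01 and 8.44 in MYBQKI6, 8.52, 7.78 and 4.66 in QKItr and 7.96, 8.87 and 5.57 in eGFP. It had differences of 1.52, 1.66 and 1.76 with an SE of 0.52, and none of them was called (limma adjusted p = 0.12, 0.13 and 0.08). Of the 6 genes of the ISG15 and ubiquitin system, 0 were called with MYBtr, 1 with MYBQKI5 and 1 with MYBQKI6. Trim25, a ubiquitin ligase that acts on RIG-I, was the one member under the lower quartile of genes in each eGFP pool.

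Igtp, an immunity-related GTPase that guards against intracellular parasites, showed the largest change among the members in each MYB comparison. It had 9.41, 9.52 and 7.59 in MYBtr, 9.28, 9.18 and 8.55 in MYBQKI5, 9.69, 9.97 and 8.03 in MYBQKI6, 7.09, 6.47 and 5.19 in QKItr and 6.94, 7.12 and 5.29 in eGFP. The lowest MYB sample, pool 3 of MYBtr, was above the highest eGFP sample. Igtp rose by 2.39 ± 0.23 with MYBtr (5.25-fold), 2.55 ± 0.23 with MYBQKI5 (5.87-fold) and 2.78 ± 0.23 with MYBQKI6 (6.87-fold), with limma adjusted p of 5.5e-05, 1.0e-04 and 3.5e-05 and with 0.11, 0.17 and 0.072 when pools were not blocked. Irgm1, of the same family, was called with MYBQKI6 (1.06 ± 0.25, limma adjusted p = 0.025), and the RNA of Mx1, a gene of the dynamin-like GTPases, with MYBQKI5 (1.62 ± 0.32, adjusted p = 0.018).

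Of 11 other antiviral effectors, 5 were called with MYBtr, 4 with MYBQKI5 and 7 with MYBQKI6. The neighbours Rsad2 (viperin) and Cmpk2 (a mitochondrial nucleotide kinase), and Lgals3bp and Ifi35, were called in each comparison. Lgals3bp, a secreted glycoprotein, rose by 1.13 ± 0.23, 1.11 ± 0.23 and 1.07 ± 0.23 (limma adjusted p = 0.011, 0.023 and 0.019). Rsad2 rose by 1.18, 1.15 and 1.23 and Ifi35 by 0.84, 0.76 and 0.86. The brightest probe set of Ifi35 differed by only 0.23 over the 3 MYB constructs, the lowest of its 10. Cmpk2 changed by 1.38 ± 0.31, 1.31 ± 0.31 and 1.40 ± 0.31 (limma adjusted p = 0.016, 0.038 and 0.019). Ifitm3, a membrane protein that blocks virus entry, had 7.11, 7.60 and 5.70 in MYBtr, 6.51, 7.24 and 6.69 in MYBQKI5, 7.26, 8.28 and 5.92 in MYBQKI6, 4.36, 5.71 and 4.80 in QKItr and 4.65, 6.85 and 5.29 in eGFP. It was called with MYBQKI6 (1.56 ± 0.37, limma adjusted p = 0.027). Bst2 (tetherin), which holds budding virus at the membrane, had 4.55, 6.82 and 4.23 in MYBtr, 4.38, 5.76 and 5.26 in MYBQKI5, 4.38, 6.66 and 4.32 in MYBQKI6, 3.81, 4.86 and 4.12 in QKItr and 3.94, 4.89 and 4.20 in eGFP. It stood highest in pool 2 of each group, and none of its differences of 0.86, 0.79 and 0.77 was called (limma adjusted p = 0.19, 0.32 and 0.29).

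The chemokine Cxcl10, which draws T cells, was called with each MYB construct. It had 8.51, 9.21 and 6.34 in MYBtr, 8.43, 8.55 and 8.00 in MYBQKI5, 8.85, 9.94 and 6.93 in MYBQKI6, 7.15, 6.73 and 4.78 in QKItr and 6.46, 7.62 and 5.03 in eGFP. Pool 3 of MYBtr lay below pools 1 and 2 of eGFP, although it was above its own pool's eGFP. The rise was 1.65 ± 0.37 with MYBtr, 1.95 ± 0.37 with MYBQKI5 and 2.20 ± 0.37 with MYBQKI6 (log2, SE; limma adjusted p = 0.017, 0.013 and 0.0045).

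The 4 antigen presentation genes had median differences of 0.42, 0.44 and 0.46 log2 units, and 1 of them was called in 1 comparison. B2m, the light chain of class I molecules, had 12.40, 12.42 and 11.42 in MYBtr, 12.16, 12.18 and 11.87 in MYBQKI5, 12.40, 12.53 and 11.55 in MYBQKI6, 11.85, 11.77 and 11.06 in QKItr and 11.70, 12.02 and 11.10 in eGFP. It was called with MYBQKI6 (0.55 ± 0.14, 1.46-fold, limma adjusted p = 0.038) and differed by 0.47 and 0.46 with MYBtr and MYBQKI5. Psmb8, a subunit of the immunoproteasome, had 5.10, 4.80 and 4.92 in MYBtr, 5.45, 5.30 and 5.12 in MYBQKI5, 5.67, 5.51 and 5.09 in MYBQKI6, 5.70, 5.37 and 5.03 in QKItr and 5.28, 5.11 and 4.79 in eGFP. Its differences were -0.12 with MYBtr, 0.23 with MYBQKI5 and 0.37 with MYBQKI6 (limma adjusted p = 0.72, 0.42 and 0.11). Tap1, a subunit of the peptide transporter, differed by 0.56, 0.41 and 0.49 and was not called. Of the members' 472 probe sets, 438 were higher on average over the 3 MYB constructs than in eGFP, and 371 were higher in 3 of 3 pools. The gene means are averages of these same probe sets, so the counts are not separate evidence. Shares over all probe sets are not given here.

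**Figure D2:**
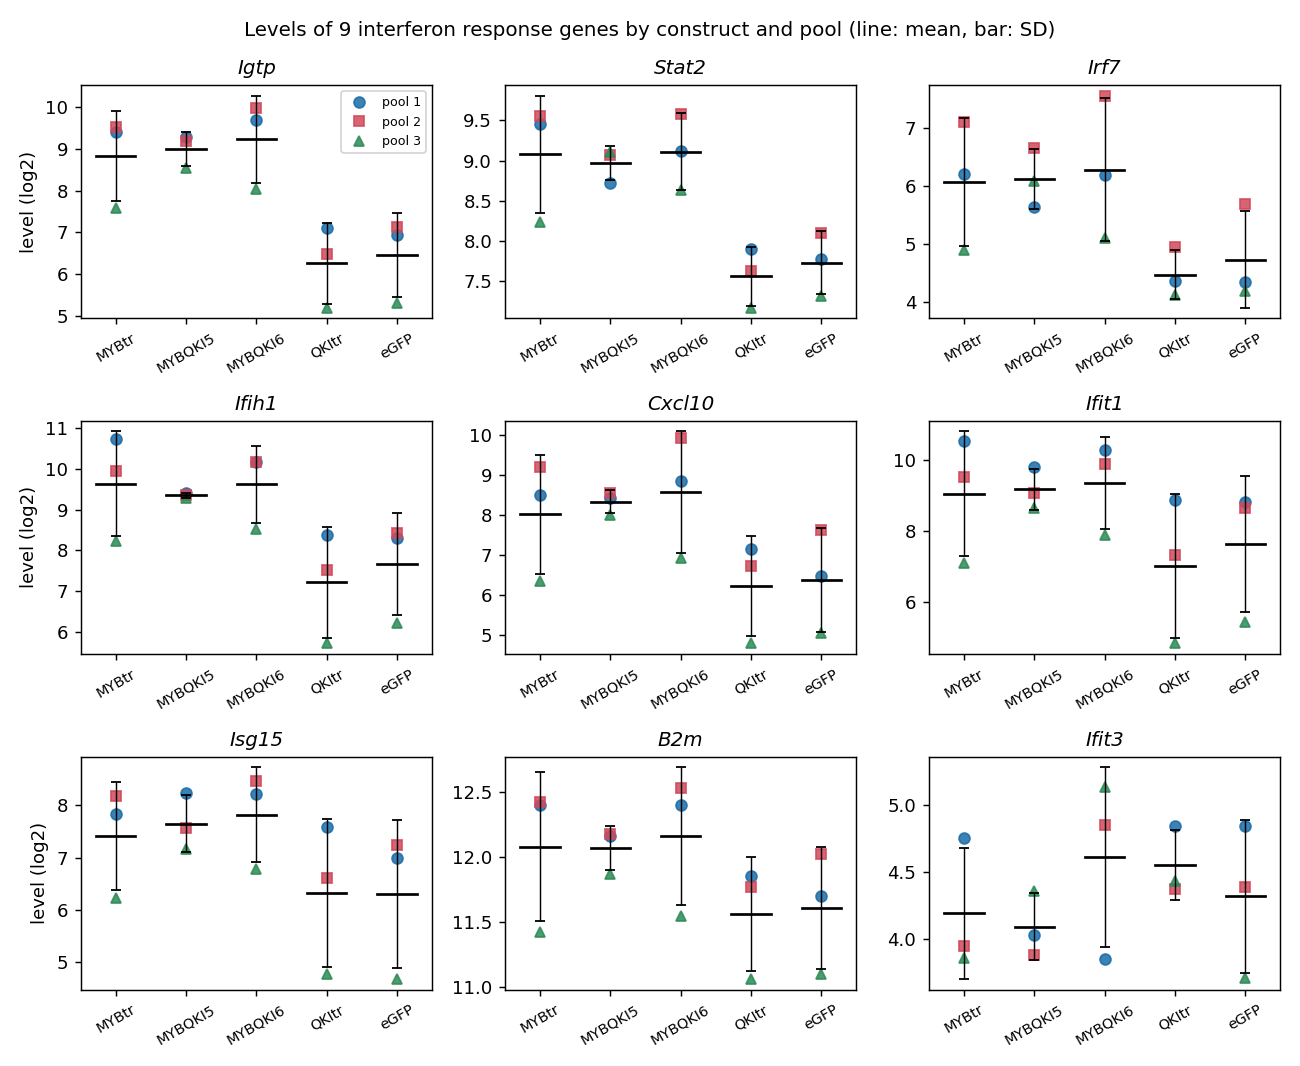
Log2 levels (y axis) of 9 members in each construct (x axis), 1 symbol per pool, with the mean as a line and the SD as a bar (n = 3 pools, eGFP arrays averaged per pool). MYB samples of Igtp and Stat2 lie above all QKItr and eGFP samples, pool 3 is lowest in most groups, and Ifit3 shows no such order.

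No member was called with QKItr against eGFP, a comparison in which a higher Qk level was itself not shown. Their median difference from eGFP was -0.15 log2 units, 7 were higher and 38 lower on average, and the count was 0 with and without the block, in a comparison that called 0 of 23152 genes (0%). Psmb8 had the smallest p, with a difference of 0.31 ± 0.12 (unadjusted p = 0.021 in limma with the block, adjusted p = 0.99). For Igtp the difference was -0.20, with a 95% confidence interval of -0.68 to 0.29, and for Stat2 it was -0.16 (-0.65 to 0.33). For Irf7 it was -0.26 (-0.91 to 0.39), so a rise of the size seen with MYB constructs lay outside these intervals. For Ifit1 (-0.62, interval -1.52 to 0.28) the upper bound also lay below the MYB differences. These intervals are from the fit with pool as a block. On group means the Ifit1 interval was -2.98 to 1.74 and included the MYB differences. Next by p after Psmb8 in the blocked fit came Ifitm3 (-0.64, interval -1.43 to 0.15), Irf9 (-0.34, -0.78 to 0.10) and Samd9l, a translation inhibitor (-0.27, -0.66 to 0.11). On group means Psmb8, Ifitm3 and Irf9 were followed by Trim25, with a difference of 0.17. Only Trim25 and Psmb8 were higher than eGFP in 3 of 3 pools, against 13.9% of all genes.

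The 2 fusions were also set against QKItr, the construct with QKI sequence and no MYB. On group means alone limma called 3 members higher, Igtp (2.87 ± 0.56, adjusted p = 0.02), Stat2 (1.47 ± 0.29, adjusted p = 0.02) and Cmpk2 (1.51 ± 0.35, adjusted p = 0.045), and 0.942% of all genes. With pool as a block it called 35 members higher and none lower, against 4.16% of all genes. With the block Igtp and Stat2 had adjusted p of 4.5e-06 and 6.0e-04. The uncalled members were Parp9, Ifi44, Psmb9, Bst2, Tap1, Ifit2, Gbp2, Psmb8, Trim25 and Ifit3. Without pool 1, 2 or 3 the blocked count was 35, 11 and 24. The median difference was 1.13 log2 units. All 3 genes of signalling and transcription, all 4 sensors and all 5 synthetase genes were in the called set, as were 9 of 11 other effectors and 1 of 4 antigen presentation genes (B2m). Irf9, uncalled against eGFP, was 0.86 ± 0.18 higher than in QKItr (limma adjusted p = 0.0085). Usp18 was 2.19 ± 0.45 higher (adjusted p = 0.0083) and Ifit1 2.25 ± 0.36 (adjusted p = 0.0019). Dhx58 was 1.98 ± 0.23 higher (adjusted p = 2.8e-04), Oas2 1.29 ± 0.18 (adjusted p = 6.4e-04), Ifih1 2.27 ± 0.31 (adjusted p = 7.2e-04), Cxcl10 2.23 ± 0.32 (adjusted p = 9.8e-04), Irf7 1.73 ± 0.26 (adjusted p = 0.0012) and Ifitm3 2.03 ± 0.32 (adjusted p = 0.0016).

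None of the 45 was called for MYBQKI5 against MYBtr, MYBQKI6 against MYBtr or MYBQKI6 against MYBQKI5, with or without the block, and on group means no gene on the array was (0% in each). The members' medians were 0.02, 0.16 and 0.13 log2 units. For Igtp the difference was 0.16 (95% confidence interval -0.32 to 0.65) for MYBQKI5 against MYBtr, 0.39 (-0.10 to 0.87) for MYBQKI6 against MYBtr and 0.23 (-0.26 to 0.71) for MYBQKI6 against MYBQKI5. For Stat2 these were -0.12 (-0.61 to 0.37), 0.02 (-0.47 to 0.51) and 0.14 (-0.35 to 0.63). Differences within these intervals were not detectable with 3 pools, and the test does not show that the constructs act alike. Psmb8 had the smallest p against MYBtr, 0.35 ± 0.12 higher in MYBQKI5 and 0.48 ± 0.12 higher in MYBQKI6 (unadjusted p = 0.0099 and 0.0011 in limma with the block, adjusted p = 0.49 and 0.55). Mx1 was 0.91 ± 0.32 higher in MYBQKI5 than in MYBtr (adjusted p = 0.52), followed by Oas3 (0.17) and Ddx58 (0.27). For MYBQKI6 against MYBtr, Igtp, Irgm1 (0.40) and Cxcl10 (0.56) came next by p with the block, and Ifit3 (0.42), Trim25 (0.25) and Mx1 (0.47) on group means. For MYBQKI6 against MYBQKI5 the smallest p belonged to Trim25 (0.36 ± 0.19), Oas1a (0.43 ± 0.28), Ifit3 (0.52 ± 0.34) and Mx1 (-0.44 ± 0.32), each with an adjusted p of 1 in limma with the block.

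Most members also differed between pools. In the fit with pool and construct, limma called a difference between pools for 42 of 45 members, all but Cmpk2, Trim25 and Ifit3, and for 34% of all genes. The columns of a pool share that pool, so the p-values here compare these 3 pools only and do not extend to other pools. Pool 3 was the low one: 38 members were called lower in pool 3 than in pool 2 (3.1% of all genes), with a median of -1.04 log2 units, and 25 lower in pool 3 than in pool 1 (16.6% of all genes), with a median of -0.58. Between pool 2 and pool 1 the median was 0.28 and 13 members were called higher, 13.6% of all genes being called higher. Cxcl10 was 2.19 ± 0.29 log2 units lower in pool 3 than in pool 2 (limma adjusted p = 4.0e-04), Ifit1 2.09 ± 0.33 lower (adjusted p = 0.0013) and Usp18 2.11 ± 0.40 lower (adjusted p = 0.0057). Igtp was 1.52 ± 0.18 lower (adjusted p = 1.8e-04), B2m 0.78 ± 0.11 lower (adjusted p = 5.4e-04) and Oas2 1.38 ± 0.16 lower (adjusted p = 1.6e-04). Dhx58 was lower by 1.52, Ifi35 by 0.98, Xaf1 by 1.70 and Isg15 by 1.68 (adjusted p at most 0.001). These genes stand for sensing, RNA decay, protein tagging and peptide display alike. Between pool 3 and pool 1, Ifit1 was 2.87 ± 0.33 lower and Igtp 1.55 ± 0.18 lower (limma adjusted p = 1.8e-05 for both). Isg15 was lower by 1.85, Samd9l by 0.93, B2m by 0.70, Ifih1 by 1.81, Irgm1 by 1.20 and Cxcl10 by 1.66 (adjusted p at most 6.6e-04). Bst2 was 1.58 ± 0.26 higher in pool 2 than in pool 1 and Oas2 0.95 ± 0.16 higher (limma adjusted p = 7.5e-04 and 7.9e-04). Irf7 was higher there by 1.05, Dhx58 by 0.91, Mx1 by 1.07, Tap1 by 0.69, Mx2 by 1.30 and Ifitm3 by 1.16 (adjusted p at most 0.0094). The probe set of highest mean gave 19 members lower in pool 3 than in pool 2 in place of 38, and leaving out MYBtr, MYBQKI6 or eGFP gave 23, 22 and 20.

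The eGFP arrays alone give the pool levels without a construct under test. Between the 2 eGFP arrays of a pool the members' median absolute difference was 0.12, 0.12 and 0.19 log2 units for pools 1, 2 and 3. Both pool 3 arrays were below both pool 2 arrays for 44 of 45 members, against 26.6% of all genes, and the members' median difference was -1.34. They were below both pool 1 arrays for 36 members, against 35.8% of all genes, with a median of -0.81. Averaged over members, the levels in pools 1, 2 and 3 were 7.40, 7.71 and 6.30 in MYBtr, 6.99, 7.42 and 7.18 in MYBQKI5, 7.30, 7.97 and 6.67 in MYBQKI6, 6.59, 6.37 and 5.27 in QKItr, and 6.35, 6.85 and 5.46 in eGFP. Pool 3 was lowest in each group except MYBQKI5, where pool 1 was. Neural stem cell markers averaged 8.54, 8.40 and 8.51 and microglia and immune markers 4.55, 4.53 and 4.44 in the 3 eGFP pools. Their part in the pool difference was not tested.

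**Figure D3:**
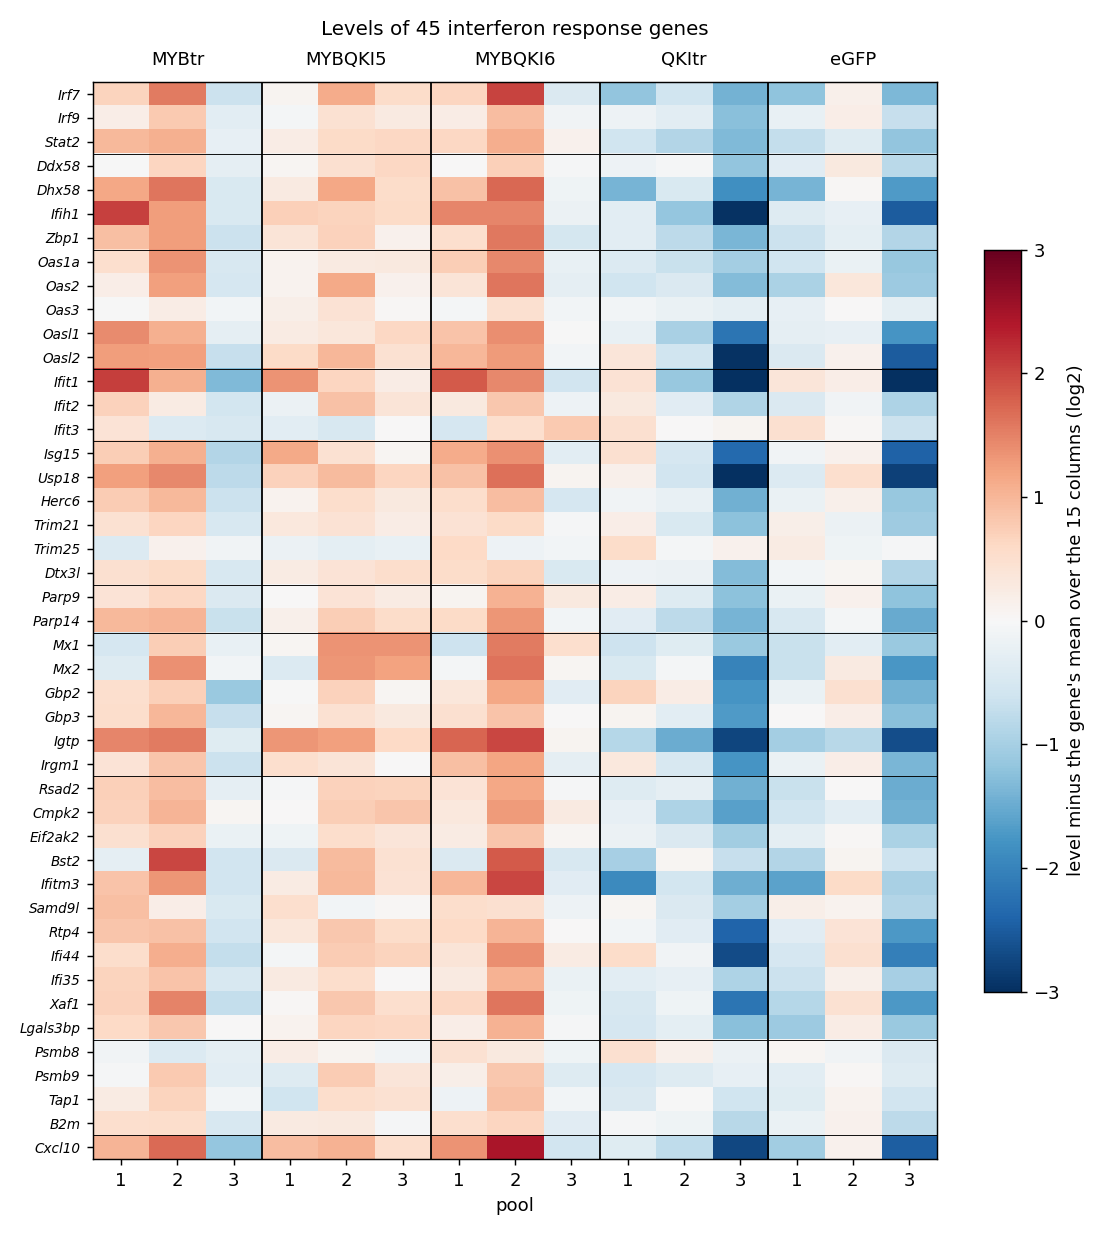
Level of each of the 45 members (rows) in each construct and pool (columns), as the log2 level minus the gene's mean over the 15 columns. Red is higher and blue lower, and values past 3 are drawn in the end colour. The MYB columns are redder than QKItr and eGFP within a pool, and pool 3 is the bluest column of MYBtr, MYBQKI6, QKItr and eGFP.

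Taken within a pool, the members' median difference from eGFP was 1.03, 0.82 and 0.72 log2 units in pools 1, 2 and 3 for MYBtr, and 0.90, 0.98 and 1.08 for MYBQKI6. For MYBQKI5 it was 0.60, 0.44 and 1.44. With 1 value per construct and pool, these differences between pools could not be tested. The largest difference of a member from eGFP in pools 1, 2 and 3 was 2.56, 2.41 and 2.30 log2 units with MYBtr. It was 2.34, 2.06 and 3.43 with MYBQKI5, and 2.75, 2.85 and 2.86 with MYBQKI6. For QKItr the medians were 0.17, -0.49 and -0.15. With QKItr, 38 members were higher than eGFP in pool 1 (48.3% of all genes), 2 in pool 2 (47.5%) and 10 in pool 3 (48.9%).

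**Figure D4:**
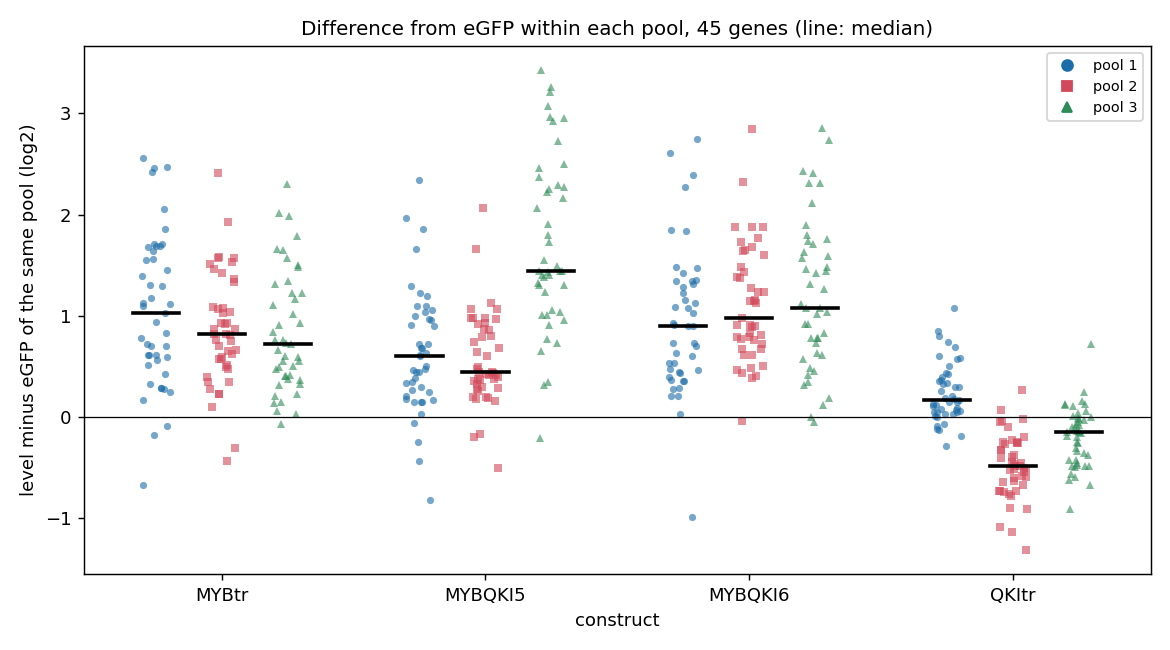
Level minus eGFP of the same pool (y axis, log2) for the 45 members (points) in each construct (x axis) and pool (symbols), with the median as a line. Medians lie between 0.44 and 1.44 for the MYB constructs and between -0.49 and 0.17 for QKItr.

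In the suppression set, all 8 samples carried MYBQKI6, and samples labelled Qk-suppressed were set against samples labelled LacZ-suppressed. The Qk level itself was 9.35, 9.30, 9.46, 9.70 and 9.58 in the samples labelled as Qk-suppressed, against 9.68, 9.70 and 9.74 in those labelled as LacZ-suppressed, a difference of -0.24 ± 0.15 (95% confidence interval -0.56 to 0.08, limma adjusted p = 0.73). A lower Qk level was thus not shown for the first label, and the comparison is one of the labels. The samples labelled Qk-suppressed also carried a first title number of 5, 6 or 9. The labels do not explain these first numbers, and the fit had no term for them. No member was called between the labels, in a comparison that called 0.00432% of all genes, with the second number in the sample's title as a block. The members' median was -0.23 log2 units, 11 of 45 were higher on average, and 8 had an unadjusted p under 0.05. Without the block 0 were called, 1 had such a p, and the median was -0.14. Shares of all genes with such an unadjusted p are not given here. The smallest p belonged to Gbp3, a guanylate-binding protein of host defence (-0.68 ± 0.18, limma adjusted p = 0.54), Oas3 (0.46 ± 0.13, adjusted p = 0.56), Ifi44 (-0.78 ± 0.27, adjusted p = 0.61) and Xaf1, a pro-apoptotic protein (-0.42 ± 0.16, adjusted p = 0.61). For Gbp3 the levels in number 1 were 7.04 and 6.79 in the samples labelled Qk-suppressed and 7.26 in the one labelled LacZ-suppressed. In number 2 they were 5.47 and 6.71, and in number 3 they were 5.20 and 5.59 against 6.00, in the same order of labels. Each of the 5 samples labelled Qk-suppressed was below the sample labelled LacZ-suppressed of its own number, while the groups overlapped across numbers. Oas3 had 4.58, 4.84, 4.80, 4.78 and 4.88 in the samples labelled Qk-suppressed, against 4.51, 3.99 and 4.32 in those labelled LacZ-suppressed, with no overlap. These levels lay near or below the array medians of 4.78 to 4.87. The share of all genes with no overlap between the labels is not given here. Igtp differed by 0.02, with a 95% confidence interval of -0.51 to 0.54, Stat2 by -0.31 (-0.67 to 0.04) and Irf7 by 0.14 (-0.19 to 0.46). Leaving out sample 5_2, the one sample labelled Qk-suppressed with second number 2, moved the median to -0.08.

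The samples differed by the second number in the title. The 3 samples numbered 1, of which 2 were labelled Qk-suppressed (6_1 and 9_1) and 1 LacZ-suppressed, were high. Averaged over members, they stood at 6.73 and 6.76 under the Qk label and at 6.94 under the LacZ label. Those numbered 2 stood at 5.27 under the Qk label and 5.86 under the LacZ label, and those numbered 3 at 5.38 and 5.66 under the Qk label and 5.44 under the LacZ label. In a test added after these values were seen, with the label as a term, limma called 29 members higher in number 1 than in number 2 (2.57% of all genes), with a median of 1.13 log2 units. It called 33 higher in number 1 than in number 3 (1.02% of all genes), with a median of 1.31, and no member lower. Samples of a number share that number, so these p-values compare these sets of samples only. Usp18 was 2.90 ± 0.32 log2 units higher in number 1 than in number 3 (limma adjusted p = 0.0023), Oas2 2.84 ± 0.25 (adjusted p = 9.1e-04) and Ifit1 2.47 ± 0.19 (adjusted p = 5.0e-04). Dhx58 was higher there by 2.07, Xaf1 by 2.12, Isg15 by 2.16, Irf7 by 1.61, Mx2 by 2.08 and Cmpk2 by 1.52 (adjusted p at most 0.0022). Against number 2, Xaf1 was higher by 2.48, Oas2 by 2.92, Ifitm3 by 2.57, Ifit1 by 2.15, Dhx58 by 1.72, Irf7 by 1.67, Mx2 by 2.11 and Rsad2 by 2.09 (adjusted p at most 8.3e-04). Oas2 had 6.96 and 7.05 under the Qk label and 7.28 under the LacZ label in number 1, and at most 4.77 elsewhere. With the probe set of highest mean 13 and 3 members were called in place of 29 and 33. Cd68, of the immune markers, was also called higher in number 1 in both comparisons, and its part was not tested. The 15 immune markers averaged 4.15 to 4.32 in the samples labelled Qk-suppressed and 4.20 to 4.46 in those labelled LacZ-suppressed, with 1 of them above the array median throughout. The labels do not say whether these numbers are those of the pools.

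**Figure D5:**
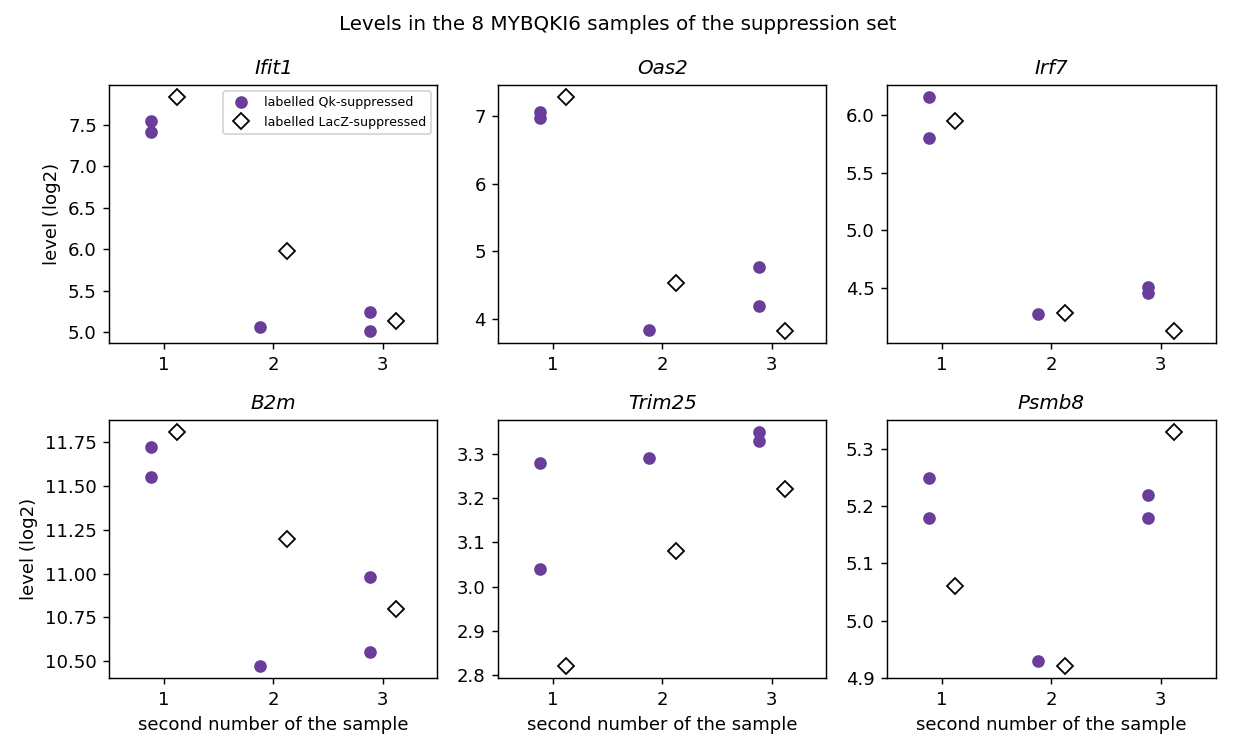
Log2 levels (y axis) of 6 members in the 8 suppression samples, by the second number in the title (x axis), with filled circles for samples labelled Qk-suppressed and open diamonds for those labelled LacZ-suppressed. For Ifit1, Oas2, Irf7 and B2m the samples numbered 1 lie above the others, while Trim25 and Psmb8 show no such split.

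Around the members, other genes of the pathway were read from lists also chosen with earlier results known. Of 53 further interferon-stimulated genes, 49 were on the array. With the block, 16 of them were called higher and 1 lower (Ifi30) with MYBtr, 9 higher with MYBQKI5 and 18 higher with MYBQKI6. The list's medians were 0.56, 0.47 and 0.60 log2 units. Irgm2, a GTPase of the same family as Igtp, had the smallest p in the 3 blocked comparisons, higher by 2.97 ± 0.39 with MYBtr, 2.68 ± 0.39 with MYBQKI5 and 3.25 ± 0.39 with MYBQKI6 (limma adjusted p = 7.4e-04, 0.0032 and 4.8e-04). The chemokine Ccl5 was higher by 1.79 ± 0.41 with MYBtr and 2.07 ± 0.41 with MYBQKI6 (adjusted p = 0.018 and 0.01), and Cxcl11, which shares its receptor with Cxcl10, by 1.04, 1.15 and 1.49 (adjusted p = 0.032, 0.034 and 0.0058). On group means alone 1 gene of the list was called, Apobec3 with MYBtr. In pool 3 against pool 2, 23 of the 49 were called lower, with a median of -0.67.

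Upstream of the response little was called. Of 21 interferon ligand genes 18 were on the array, with list medians of 0.01 for MYBtr and MYBQKI6. Ifnz (interferon zeta) alone was called, with MYBtr (0.96 ± 0.15, limma adjusted p = 0.0025) and MYBQKI6 (0.64 ± 0.15, adjusted p = 0.029), and it was also 0.91 ± 0.12 lower in pool 3 than in pool 2 (adjusted p = 3.6e-04). Ifnb1 had log2 levels of 2.56 to 2.73 in MYBtr, 2.60 to 2.62 in MYBQKI5, 2.60 to 2.73 in MYBQKI6, 2.42 to 2.61 in QKItr and 2.31 to 2.55 in eGFP, and was not called. These levels lay below the lower quartile of genes in the pool set (3.68 to 3.90 per array). At such levels the lack of a call does not show that its RNA was unchanged. Of 9 receptor and kinase genes on the array none was called with a MYB construct. Stat3, a transcription factor read in the same list, which carries signals of interleukins, was called lower with each, by 1.00 ± 0.17 with MYBtr, 0.79 ± 0.17 with MYBQKI5 and 0.88 ± 0.17 with MYBQKI6 (log2, SE; limma adjusted p = 0.0032, 0.024 and 0.009). Ifnar1 differed by 0.02, -0.01 and 0.15. Among 21 genes of nucleic acid sensing upstream of interferon, Tbk1 alone was called, with MYBtr (0.39 ± 0.10, limma adjusted p = 0.035). None of 15 brakes on the response was called against eGFP. Against QKItr, Adar, an RNA editor that hides self RNA from sensors, was 0.56 ± 0.12 higher in the fusions (adjusted p = 0.01). Of 19 further genes of antigen presentation, Tapbp (tapasin) was called with each MYB construct, higher by 0.71 ± 0.14, 0.77 ± 0.14 and 0.67 ± 0.14 (limma adjusted p = 0.0084, 0.011 and 0.015).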

How the data were processed

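RNA was measured on 26 Affymetrix arrays, of which 18 belonged to the pool set and 8 to the suppression set. The deposited values were log2 signals per probe set (0.22 to 14.58), and their normalization is not given in the sources used here. Of 269751 probe sets, 233753 named 1 gene, 5106 several and 30892 none, and the log2 values of a gene's probe sets were averaged to 23152 genes. The members and the pathway lists were chosen with earlier results of these data known. Group means were compared with limma 3.58.1 in R 4.3.3 (lmFit and eBayes) over all genes, with Benjamini-Hochberg adjustment over all of them and a threshold of 0.05. The pool set was fitted without a block, and again with pool as a replicate block. The suppression set was fitted with the second number in the title as a block. Same-pool samples deviated together, with correlations of residuals of 0.31 to 0.72 in 30 pairs, against a median of -0.23 in 60 other pairs. Same-number samples of the suppression set had correlations of 0.22 to 0.57 in 5 pairs. Both were therefore taken as paired, and blocked values stand beside the others. For each comparison of members the text names those called, or the 8 with the smallest p where more were called, and the 4 with the smallest p where fewer than 4 were. Levels per pool are given for 13 members named in the rule, and for Igtp and Ifih1, which were added after their values were seen. Other members are given as counts. The fits were tested on simulated data. The comparison of second numbers, and the blocked fits with a pool left out, another probe set rule or quantile normalization, were added after the data were seen. The number of arrays limits the precision.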

Additional observations from a re-analysis of the deposited data

Results flagged for a closer look

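Psmb8 in the group labelled Qk-suppressed had 1 sample apart from the other 4: sample 5_2 stood at a log2 level of 4.93, and the nearest of the others at 5.18. The gap made up 0.76 of the range of the 5 samples. It is the one sample labelled Qk-suppressed with second number 2. Such a gap can arise by chance, and how often it does so was not tested.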

How the results depend on the processing

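Blocking by pool moved the number of called members to 17 for MYBtr, 13 for MYBQKI5 and 23 for MYBQKI6 against eGFP, each 0 without it, and to 35 for the fusions against QKItr, 3 without it. With the replicate block and pool 1, 2 or 3 left out, the counts were 2, 1 and 20 for MYBtr, 4, 2 and 4 for MYBQKI5, 5, 1 and 18 for MYBQKI6, and 35, 11 and 24 for the fusions, in fits with fewer samples. The block with each gene's probe set of highest mean gave 5, 1, 6 and 21, and the block with quantile normalization 18, 14, 22 and 35. Without the block, leaving out 1 replicate at a time gave 0 to 3 members for MYBtr (3 without MYBtr pool 3), 0 to 1 for MYBQKI6 (1 without MYBQKI6 pool 3) and 0 to 5 for the fusions. The last count was 1 without MYBQKI5 pool 3, 5 without MYBQKI6 pool 3, and 0 without MYBQKI6 pool 2, QKItr pool 2 or QKItr pool 3. The probe set of highest mean gave 1 member for the fusions, 13 for number 1 against number 2 and 3 for number 1 against number 3. Under it, Oas2 turned to -0.08 between pool 2 and pool 1. Shares of all genes called are not given for these alternative runs, and the cause of these moves was not tested. The counts of 0 for QKItr, for the 3 pairs of MYB constructs and for the Qk against the LacZ label stayed at 0 under each alternative run, and blocking changed none of them. The count of members that differed between pools was 33 to 42 with a construct left out.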
